A study of Mus musculus with 5 samples.

Results

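The genes described here are 10 that act in cutting nascent transcripts, in adding the poly(A) tail or in binding it. Their symbols are Cstf1, Cstf2, Cstf3, Cpsf2, Cpsf3, Cpsf4, Pcf11, Nudt21, Papola and Pabpc1. They were taken by symbol, and every probe set annotated to exactly 1 of these symbols was used. That gave 13 probe sets among the 10833 with a single symbol, which stand for 8251 genes. Cstf1, Cpsf2 and Papola had 2 probe sets each and the other 7 genes had 1. All 13 passed the filter on low values, so none was dropped.

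Cleavage at a poly(A) site begins when the cleavage and polyadenylation specificity factor (CPSF) recognises the AAUAAA signal and the cleavage stimulation factor (CstF) binds the GU-rich or U-rich element downstream of the cut. Cleavage factors I and II complete the complex, poly(A) polymerase builds the tail, and poly(A)-binding proteins coat it. In B lineage cells the choice between a secretory poly(A) site and splicing to the membrane exons decides which form of the immunoglobulin heavy chain mRNA is made. The levels of these factors, and of hnRNP-F and hnRNP-H, which bind near poly(A) sites, have long been studied in that setting.

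Poly(A) RNA of 5 mouse cultures was hybridised to 1 Affymetrix array each. AxJ is a plasma cell line, the antibody-secreting stage of the B lineage. Its 4 stable transfectants carried empty vector (1 array), overexpressed hnRNP-H (1 array) or overexpressed hnRNP-F (2 arrays, subclones B5 and D6). A20 (1 array) is labelled as a memory B cell line. All AxJ cultures were kept in the selection drug G418 and A20 was not. The hnRNP-F and hnRNP-H lines are clones that the submitters picked by western blot. The labels do not say whether B5 and D6 came from separate transfections or from 1 transfectant. Clone and transgene therefore cannot be told apart for any of these lines, and n = 2 for the clones counts arrays of 2 subclones. In a culture, fewer cells of one kind and less RNA per cell cannot be told apart either. The empty vector and hnRNP-H arrays are called the AxJ controls below. They are different lines with 1 array each, so n = 2 for the controls does not count replicates. The spread of the controls, and the SE and p-values that use it, include any difference between these lines.

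Hnrnph1 read 1454 and 1060 in the empty vector and hnRNP-H lines, so the line labelled as overexpressing hnRNP-H was not higher than its control on that probe set. Whether the probe set reads the introduced transcript was not tested, and Hnrnpf was not analysed here. At the level of cell type the arrays followed their labels. Plasma cell markers summed to between 14267 and 22409 normalised units on the AxJ arrays and to 2642 on A20. All 8 tested plasma cell probe sets were lower in A20 than in the AxJ controls, 5 with a limma adjusted p under 0.05. B cell markers summed to between 2024 and 4034 on the AxJ arrays and to 13737 on A20. All 11 tested B cell probe sets were higher in A20, 7 with a limma adjusted p under 0.05. T cell markers summed to at most 128 on any array. Myeloid markers summed to 206 to 457, highest in clone B5. RNA integrity was read from the Gapdh controls of the array as the signal of their 5' end over that of their 3' end. This ratio was lowest in clone B5 (0.181) and the empty vector line (0.212), intermediate in A20 (0.384), and higher in clone D6 (0.683) and the hnRNP-H line (0.866). The part of that ratio in the member values was not tested.

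In the text below a level is a quantile-normalised intensity, comparable between arrays for 1 probe set but not between probe sets. A difference is on the log2(intensity + 6.55) scale, which understates the change of dim probe sets. A probe set was called when the adjusted p of a limma fit over all 9107 probe sets kept was under 0.05. With 2 arrays against 2, an exact two-sided permutation test of a single value cannot go below p = 0.333, so no such test is given. Nothing in the labels describes repeated cultures, so the p-values measure the spread between these arrays only.

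**Figure D1:**
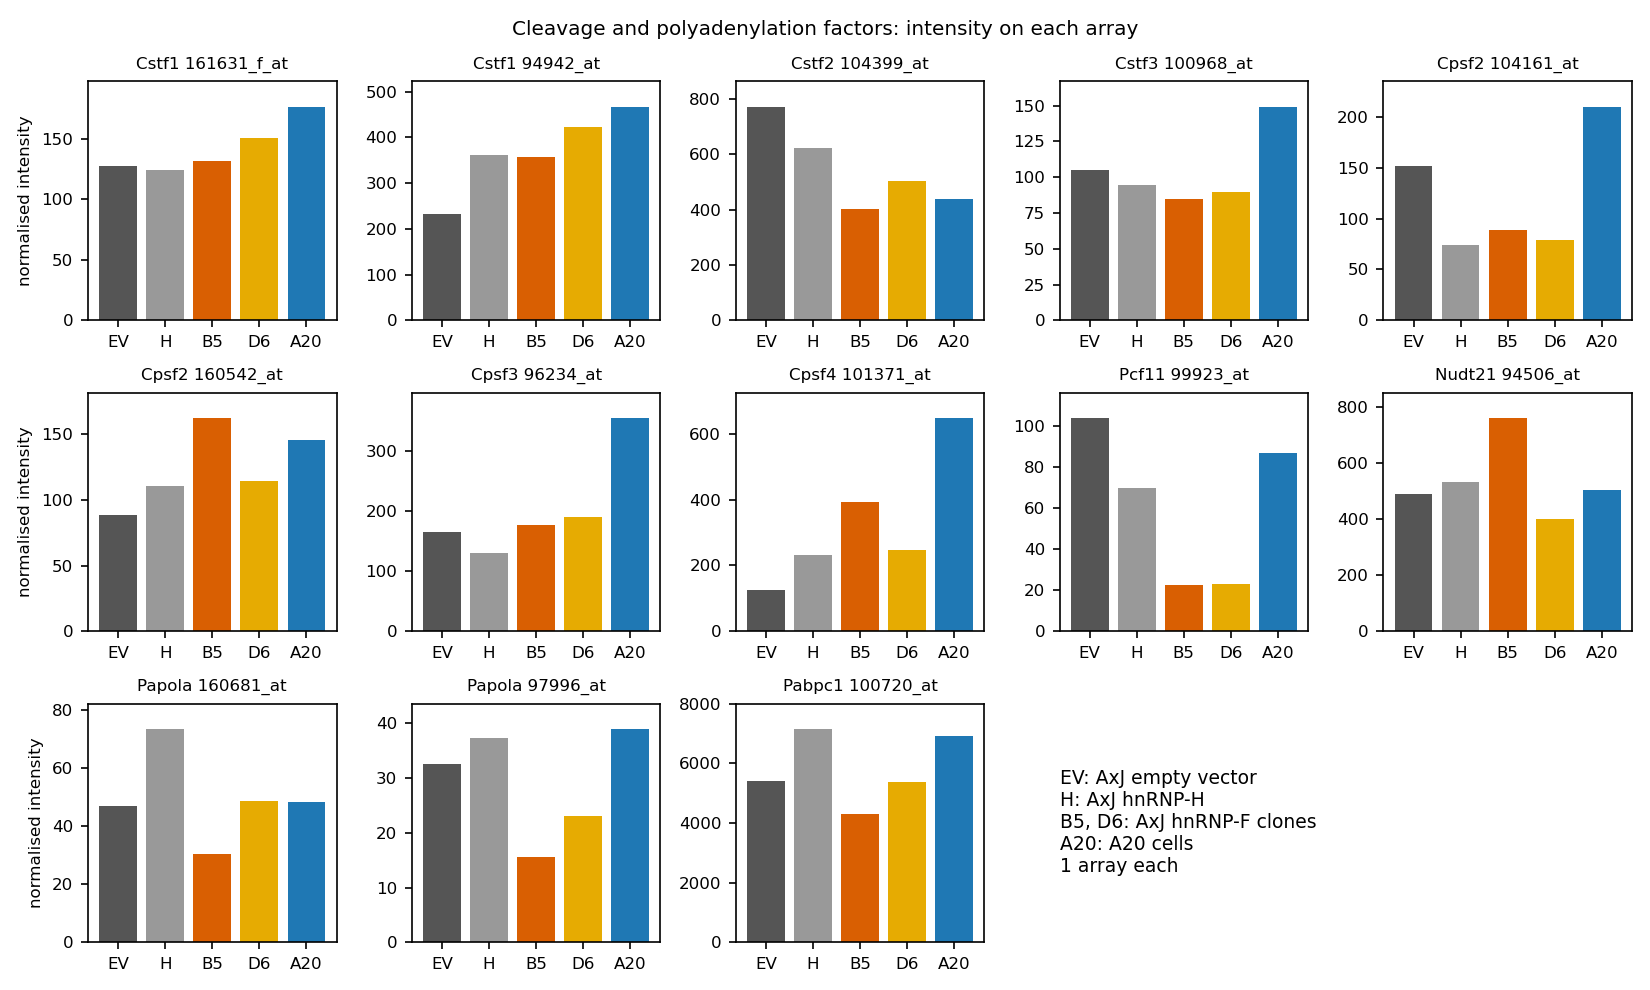
Quantile-normalised intensity of each of the 13 member probe sets (vertical axes, linear, each starting at 0 and with its own scale) on the 5 arrays. EV and H are the AxJ controls, B5 and D6 the hnRNP-F clones. Pcf11 stands at 22.4 and 22.9 in the clones against 69.9 to 104 on the other arrays, and Cpsf4 is highest in A20 at 647.

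The 2 members whose levels separated the lines most were Pcf11, low in both hnRNP-F clones, and Cpsf4, high in A20. To place them in the genome, 250 bases of a promoter window of each are given here from RefSeq on GRCm38.p6, 5′ to 3′ on the gene's own strand. The Cpsf4 window ends just before the annotated 5′ end of the gene, at 145167213. The Pcf11 window spans the annotated 5′ end of its gene, at 92670080, so part of it lies inside the gene. Capitals mark any match to the GC box GGGCGG, the CCAAT box CCAAT or the TATA box TATAAA, read on both strands.
Pcf11, chr7:92669913-92670162, minus strand: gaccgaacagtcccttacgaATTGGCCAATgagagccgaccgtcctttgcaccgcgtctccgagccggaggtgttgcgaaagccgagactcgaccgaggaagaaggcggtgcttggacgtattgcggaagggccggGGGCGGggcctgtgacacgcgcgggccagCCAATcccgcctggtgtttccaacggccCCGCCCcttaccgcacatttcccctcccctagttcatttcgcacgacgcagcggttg
Cpsf4, chr5:145166963-145167212, plus strand: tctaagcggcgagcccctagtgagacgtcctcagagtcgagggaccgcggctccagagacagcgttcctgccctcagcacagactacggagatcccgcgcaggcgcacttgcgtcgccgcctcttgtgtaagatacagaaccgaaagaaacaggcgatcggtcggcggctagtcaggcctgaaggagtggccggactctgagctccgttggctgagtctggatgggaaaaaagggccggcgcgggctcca

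The Pcf11 window held 2 GC boxes and 3 CCAAT boxes, of which a pair on opposite strands lie end to end without overlap. The GC boxes and the remaining CCAAT box lie past the annotated 5′ end, inside the gene. The Cpsf4 window, the first of 2 that the table lists, held none of the 3 motifs. Among the 9 members with a window in the table, 3 had a GC box, 3 had a CCAAT box and 0 had a TATA box. Of all 32851 windows of that length, 32.7% held a GC box, 33.8% a CCAAT box and 12.4% a TATA box. These matches describe letters in a window and were not related to any measured level.

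The first comparison set the hnRNP-F clones against both AxJ controls, the lines between which the submitters describe a shift from secreted to membrane heavy chain mRNA. None of the 13 member probe sets was called, with limma adjusted p from 0.790 to 0.966. The background was 1 call among 9107 probe sets, or 0.0110%. At an unadjusted p under 0.05 stood 2 members, Pcf11 and Cstf2, against 527 probe sets or 5.79% of all.

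Pcf11 (probe set 99923_at), a subunit of cleavage factor II that also binds the tail domain of RNA polymerase II and acts in termination, had the lowest difference of the members. It read 104 and 69.9 in the empty vector and hnRNP-H lines, 22.4 and 22.9 in clones B5 and D6, and 86.9 in A20. Both clones thus lay below both controls and below A20, and the clones were almost equal. The control mean was 86.8 ± 23.9 (SD, n = 2) and the clone mean 22.7 ± 0.366 (SD, n = 2), a ratio of 3.83. As deposited, before normalisation, the values were 103, 70.8, 24.1, 22.9 and 85.3 in the same order, a ratio of 3.71. The fitted difference was -1.65 (SE 0.39, limma unadjusted p = 0.00237, adjusted p = 0.790). The 4 clone-to-control differences ran from -1.93 to -1.38. Pcf11 was thereby the only member at least 2-fold below both controls in both clones, where 37 probe sets or 0.406% of all stood. The clone values lie just above the filter of 21.8, so the pseudocount bears on the size. The difference was -1.86 with a pseudocount of 1 and -1.27 with one at the 40th percentile. Over all alternatives it ran from -1.92, without the hnRNP-H array, to -1.27.

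The CstF subunits did not lie together. Cstf2 (probe set 104399_at) encodes the subunit that contacts the downstream RNA element, and its abundance in B lineage cells has been tied to use of the secretory site. It read 770 and 623 in the empty vector and hnRNP-H lines, 403 and 503 in clones B5 and D6, and 437 in A20. The clones and A20 lay below both controls, with A20 between the clones. The clone difference was -0.61 (SE 0.27, limma unadjusted p = 0.0493, adjusted p = 0.790), and the clone mean was 0.651 of the control mean.

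Cstf3 (probe set 100968_at), the scaffold that joins the other CstF subunits, read 105 and 94.3 in the empty vector and hnRNP-H lines, 85.0 and 89.5 in clones B5 and D6, and 149 in A20. The clones lay below both controls, but by at most 0.28, for a difference of -0.18 (SE 0.31, limma adjusted p = 0.925). Cstf1, the WD-repeat subunit, read 233, 362, 356 and 423 on probe set 94942_at in empty vector, hnRNP-H, B5 and D6, and 466 in A20. The hnRNP-H control lay between the clones there, and the difference was 0.41 (SE 0.30, adjusted p = 0.807). It was 0.10 without the empty vector array and 0.72 without the hnRNP-H array. Its other probe set, 161631_f_at, carries the maker's suffix for probes shared within a sequence family and read 127, 124, 131 and 150 on the AxJ arrays and 176 in A20. The clones lay above the controls on that probe set by as little as 0.04, with a difference of 0.15 (SE 0.30, adjusted p = 0.934).

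Among the CPSF subunits the highest clone difference was that of Cpsf4, the zinc finger subunit that contacts the AAUAAA signal. Cpsf4 (probe set 101371_at) read 125 and 233 in the empty vector and hnRNP-H lines, and 392 and 247 in clones B5 and D6. Both clones lay above both controls, D6 above hnRNP-H by only 0.09. The controls differed from each other by 0.86, as much as the fitted clone difference of 0.84 (SE 0.37, limma adjusted p = 0.790). That difference was 0.41 without the empty vector array, 1.27 without the hnRNP-H array and 0.52 without clone B5.

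Cpsf3 (probe set 96234_at), the endonuclease that makes the cut, read 165 and 130 in the empty vector and hnRNP-H lines, and 177 and 190 in clones B5 and D6. The clones lay above both controls, with a difference of 0.31 (SE 0.29, limma adjusted p = 0.831). Cpsf2, its catalytically inactive relative and partner, was read by 2 probe sets that parted. Probe set 104161_at read 151 and 73.8 in the empty vector and hnRNP-H lines, and 88.3 and 78.6 in clones B5 and D6. The clones thus lay between the controls (difference -0.33, SE 0.39, limma adjusted p = 0.881). Probe set 160542_at read 88.1, 110, 162 and 114 in the same order, with both clones above both controls (difference 0.44, SE 0.33, adjusted p = 0.811). The order of the 4 AxJ lines in Cpsf2 therefore depends on the probe set.

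Nudt21 (probe set 94506_at), the subunit of cleavage factor I that binds UGUA motifs upstream of poly(A) sites, separated the clones from each other. It read 492 and 533 in the empty vector and hnRNP-H lines, 761 and 400 in clones B5 and D6, and 505 in A20. The controls and A20 lay close together, with B5 above and D6 below them. The difference of 0.11 (SE 0.33, limma adjusted p = 0.966) averages 2 clones that lie on opposite sides of the controls, and D6 was below B5 by 0.92.

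Papola, which encodes the canonical nuclear poly(A) polymerase, was dim on both probe sets. Probe set 160681_at read 47.2 and 73.5 in the empty vector and hnRNP-H lines, 30.6 and 48.7 in clones B5 and D6, and 48.5 in A20, with D6 between the controls. Probe set 97996_at read 32.6, 37.2, 15.6, 23.1 and 38.9 in the same order, with both clones below both controls. Their clone differences were -0.53 (SE 0.42) and -0.69 (SE 0.46), with limma adjusted p of 0.817 and 0.798. Clone B5 was the lowest array on both. The order of the 5 arrays on 160681_at was that of their Gapdh ratios, from 0.866 in the hnRNP-H line to 0.181 in clone B5, which held for 1 of the 13 member probe sets. The part of the ratio in this level was not tested.

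Pabpc1 (probe set 100720_at), the main cytoplasmic poly(A)-binding protein, read 5423 and 7154 in the empty vector and hnRNP-H lines, 4297 and 5381 in clones B5 and D6, and 6912 in A20. The clones lay below both controls, D6 by as little as 0.01. The clone difference was -0.37 (SE 0.25, limma adjusted p = 0.798). As deposited the values were 6143, 6344, 4799, 5242 and 5306, where A20 lay close to D6 and below both controls, so its place in the order depends on the normalisation.

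Counted over the list, both clones lay above both controls for 4 probe sets, against 18.2% of all probe sets. These were Cpsf3, Cpsf4 and only 1 probe set each of Cstf1 (161631_f_at) and Cpsf2 (160542_at). Both clones lay below both controls for 5, of Cstf2, Cstf3, Pcf11, Pabpc1 and only 1 of Papola (97996_at), against 19.4% of all. The remaining 4 had a clone between or on both sides of the controls. Under the deposited scaling 3 lay above and 6 below, and under median scaling 3 and 5. Cstf1 was no longer among those above under either scaling. The median member difference was -0.18, with 6 above 0 and 7 below, beside a median of 0.0050 over all probe sets. The members thus lay on both sides of the controls in the clones. Leaving out 1 AxJ array moved the difference by over 1.5 times or turned its sign for 10 of the 13, the exceptions being Pcf11, Cstf2 and Papola probe set 97996_at.

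**Figure D2:**
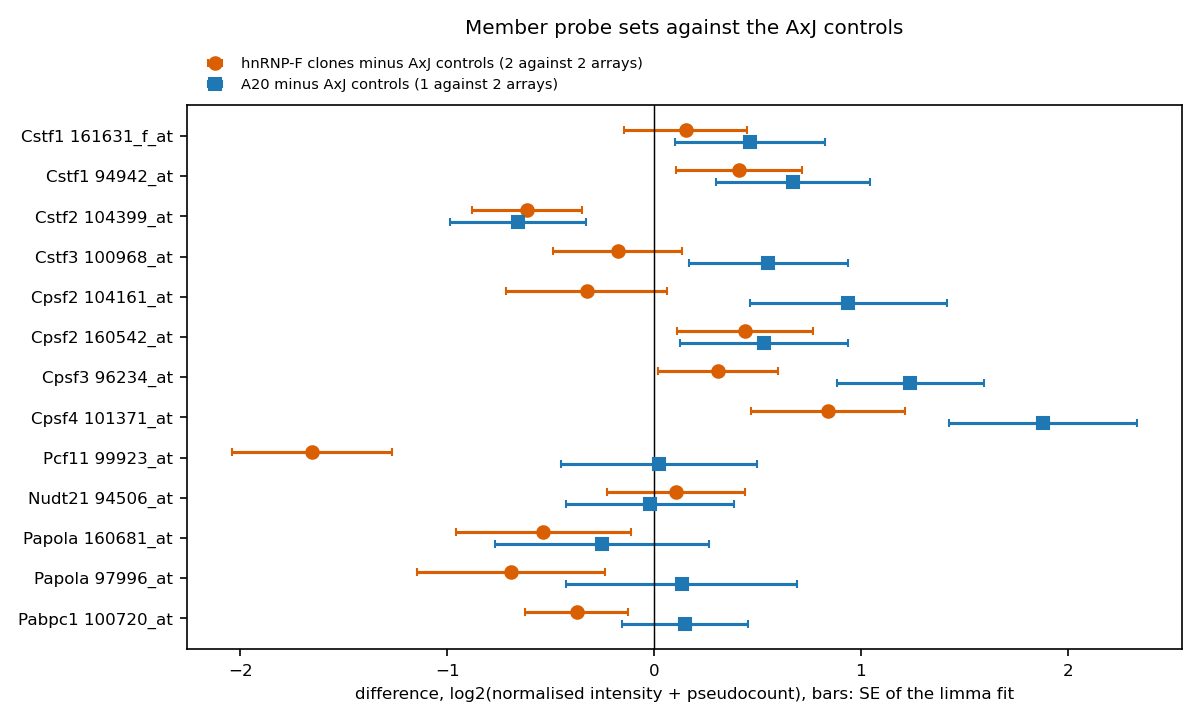
Difference from the AxJ controls for each member probe set (horizontal axis, log2 scale), for the hnRNP-F clones (circles) and A20 (squares), with bars of 1 SE from the limma fit. Both differences use the same 2 control arrays. Pcf11 at -1.65 is the lowest clone value and Cpsf4 at 1.88 the highest A20 value.

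The second comparison set A20 against the same AxJ controls, to ask how these genes differ between a B cell line and a plasma cell line. Cpsf4 was the 1 member probe set called as higher, where 264 of 9107 probe sets or 2.90% were. As lower, 0 members were called, where 272 or 2.99% were. With Cpsf3, 2 of 13 members had an unadjusted p under 0.05, where 1762 probe sets or 19.3% of all did. A20 has a single array and is assumed in the fit to vary like the AxJ lines.

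Cpsf4 read 647 in A20 against the AxJ values of 125, 233, 392 and 247 given above. A20 lay above all 4 AxJ lines, nearest to clone B5. It rose by 1.88 (SE 0.45, limma adjusted p = 0.0495), or 3.61 times the control mean, and A20 exceeded the single AxJ arrays by 0.71 to 2.31. Its deposited values of 124, 235, 379, 252 and 668 gave a ratio of 3.72. The call stood close to the threshold and was lost under 7 of 12 alternatives, with differences from 1.45 to 2.31 and adjusted p from 0.0252 to 0.175. The empty vector array was the lowest, and without it the difference was 1.45 (adjusted p = 0.119).

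Cpsf3 read 354 in A20 against 130 to 190 on the AxJ arrays, so that A20 lay apart from all 4. The difference was 1.24 (SE 0.36, limma adjusted p = 0.0871), and it passed under median scaling (1.53, adjusted p = 0.0422). Cpsf2 read 209 in A20 on 104161_at, above all AxJ lines (difference 0.94, SE 0.48, adjusted p = 0.335). This difference was 0.45 without the hnRNP-H array and 1.43 without the empty vector array. On the other, 160542_at, A20 read 145, below clone B5 (difference 0.53, SE 0.40, adjusted p = 0.554). The CPSF probe sets thus had positive A20 differences throughout, of which the one for Cpsf4 passed.

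The CstF subunits again parted. A20 lay above all 4 AxJ lines for both Cstf1 probe sets, with differences of 0.67 (SE 0.37, or 0.36 without the empty vector array) and 0.46 (SE 0.36), and for Cstf3 with 0.55 (SE 0.38). Their limma adjusted p ran from 0.384 to 0.565. For Cstf2 the difference was -0.66 (SE 0.33, adjusted p = 0.326), and A20 lay between the hnRNP-F clones.

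The other members stood near the controls in A20. Pcf11 differed by 0.02 (SE 0.47), Nudt21 by -0.02 (SE 0.41), the Papola probe sets by -0.25 (SE 0.52) and 0.13 (SE 0.56), and Pabpc1 by 0.15 (SE 0.30). Their limma adjusted p ran from 0.854 to 0.988, and each of these 5 signs turned under at least 1 alternative. For Pcf11, A20 lay between empty vector and hnRNP-H and exceeded clones B5 and D6 by 1.69 and 1.66.

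Over the list, A20 lay above all 4 AxJ arrays for 7 of 13 probe sets, against 26.0% of all, and below all 4 for 0, against 28.9% of all. The count above was 6 under the deposited scaling, with 23.5% of all, and 9 under median scaling, with 32.3%. The count below stayed at 0 under both. The 7 were both Cstf1 probe sets, Cstf3, 1 of Cpsf2, Cpsf3, Cpsf4 and 1 of Papola, but for that Papola probe set the order depends on the normalisation. The median difference was 0.46, with 10 above 0 and 3 below, beside a median of -0.04 over all probe sets. The median over all probe sets moved by more than 0.1 with the scaling, to -0.14 as deposited and 0.06 under median scaling.

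The clone and A20 comparisons share their controls, so their values are set side by side and not correlated. Cpsf4 was positive in both, at 0.84 and 1.88, and Cstf2 negative in both, at -0.61 and -0.66. Pcf11 was at -1.65 in the clones and 0.02 in A20, and Cstf3 at -0.18 and 0.55.

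The remaining pairs of lines have 1 array a side and no test. Between hnRNP-H and empty vector no member differed by 2-fold, where 18.1% of all probe sets did. The member differences ran from -0.98 for Cpsf2 probe set 104161_at to 0.86 for Cpsf4, with a median of 0.12. Between clones D6 and B5 no member differed by 2-fold on the log2 scale either, where 12.0% of all did. These differences ran from -0.92 for Nudt21 to 0.57 for Papola probe set 160681_at, with a median of 0.10. Over the 13 member probe sets the root mean square log2 difference was smallest between B5 and D6, at 0.42, followed by 0.50 between empty vector and hnRNP-H and 0.51 between hnRNP-H and D6. Over all probe sets the smallest was 0.55, between hnRNP-H and D6, and B5 and D6 stood at 0.65. The largest member value was 0.89, between empty vector and B5. This is a description of single arrays.

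Probe sets of other genes with the most similar pattern over the 5 arrays were found by the root mean square difference of centred log2 values. For Cstf2 these were Herc1 (0.05), Cul4a (0.06) and Sc5d (0.06). For Cpsf4 they were Pttg1 (0.14), Sema4d (0.14) and Cenpv (0.15). For Pcf11 they were Cwf19l1 (0.07), Ccl22 (0.11) and Lipe (0.15). With 5 arrays such likeness is easily met among 9107 probe sets.

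Other genes of mRNA 3-prime end formation were read from 4 lists. In the clones none of their probe sets was called. Of 13 probe sets for 11 other core and related factors, 8 lay below 0 and 5 above (median -0.27). Pabpn1, the nuclear poly(A)-binding protein, read 203 and 620 in the empty vector and hnRNP-H lines, 758 and 639 in clones B5 and D6, and 1364 in A20, with the empty vector array far below the rest. Its differences were 0.96 (SE 0.46) in the clones and 1.92 (SE 0.56) in A20, neither called (limma adjusted p = 0.790 and 0.0922). Xrn2, the exonuclease of transcription termination, was dim, at 38.9 and 23.2 in the controls, 11.2 and 10.6 in the clones and 6.18 in A20. Its differences were -1.08 (SE 0.57) and -1.53 (SE 0.70), also not called. In A20 this list of core and related factors had 6 above 0 and 7 below (median -0.16), none called.

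The poly(A) tail binding and deadenylation list held 15 tested probe sets of 13 genes, 8 of them below 0 in the clones (median -0.11). The lowest there were dim probe sets of Cnot7 (-1.33, SE 0.59) and Pabpc4 (-0.98, SE 0.68). Other probe sets of these genes stood at -0.11 and -0.22. In A20, 1 probe set of this list was called as higher and 2 as lower, with 6 above 0 and 9 below (median -0.19). Larp1, which binds poly(A) tails and 5-prime terminal oligopyrimidine mRNAs, rose by 2.30 (SE 0.30, limma adjusted p = 0.00417). Its level was 2380 in A20 against control levels of 458 and 502. Tob1 and Btg2, antiproliferative proteins that recruit the CCR4-NOT deadenylase, both fell. Tob1 fell by 2.27 (SE 0.33, adjusted p = 0.00687) and Btg2 fell by 1.90 (SE 0.36, adjusted p = 0.02). The A20 level of Tob1 was 123 against 704 and 537 in the controls, and that of Btg2 277 against 824 and 1353.

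Of the histone mRNA factors, Slbp, which binds the histone stem-loop, stood at -0.54 (SE 0.34) in the clones and 0.86 (SE 0.42) in A20. Casp8ap2 stood at -0.69 (SE 0.30) and 0.04 (SE 0.37), and neither gene was called in either comparison. In the list of U1 particle proteins and other proteins known to act on poly(A) site choice, 10 of 13 tested probe sets lay below 0 in the clones (median -0.39), none called. The lowest were a probe set of Ell2, an elongation factor known to favour the secretory poly(A) site in plasma cells (-1.36, SE 0.46, limma unadjusted p = 0.0166) and Sub1, a coactivator known in yeast and human to meet CstF (-0.83, SE 0.49). The other Ell2 probe sets stood at -0.47 (SE 0.29), for the brightest of them, and -0.09 (SE 0.40) in the clones. In A20, 7 of 13 lay below 0 (median -0.28) and the brightest Ell2 probe set fell by 1.48 (SE 0.35, adjusted p = 0.0480), while the 2 other Ell2 probe sets differed by -1.87 and -1.38 without being called.

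**Figure D3:**
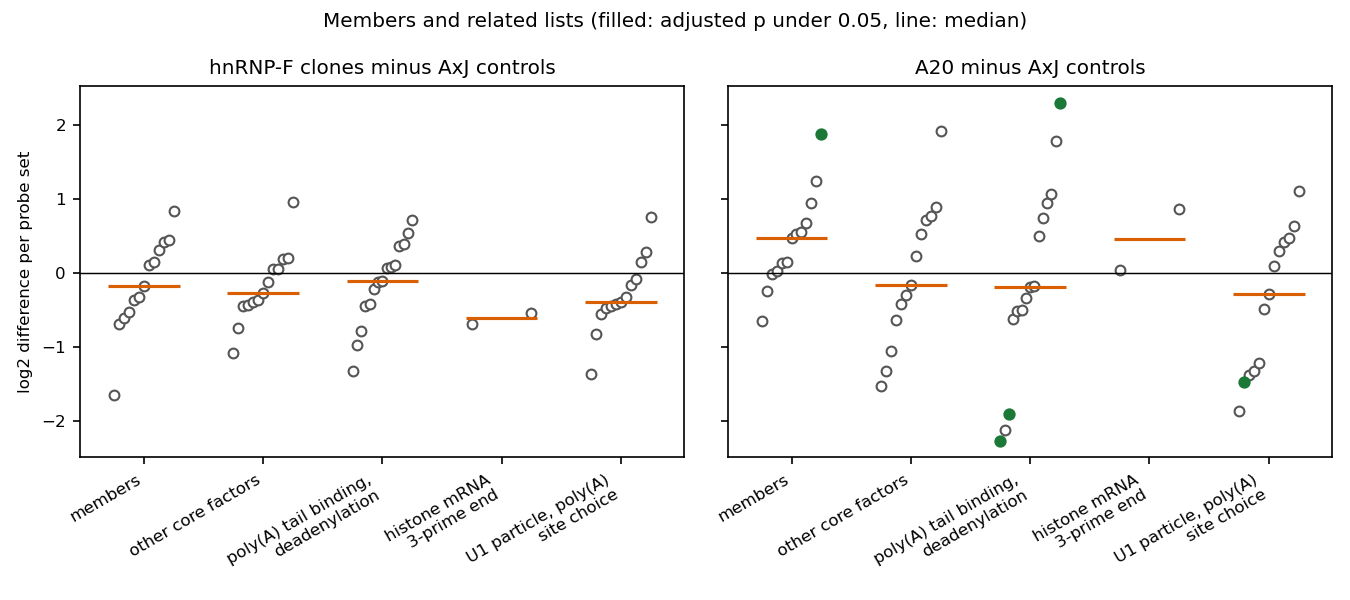
Log2 difference of every tested probe set (vertical axis) for the members and 4 related lists, for the hnRNP-F clones (left) and A20 (right). Filled points have an adjusted p under 0.05 and lines mark medians. None is filled on the left. On the right Cpsf4 at 1.88 is the filled member, beside Larp1, Tob1, Btg2 and 1 Ell2 probe set.

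**Figure D4:**
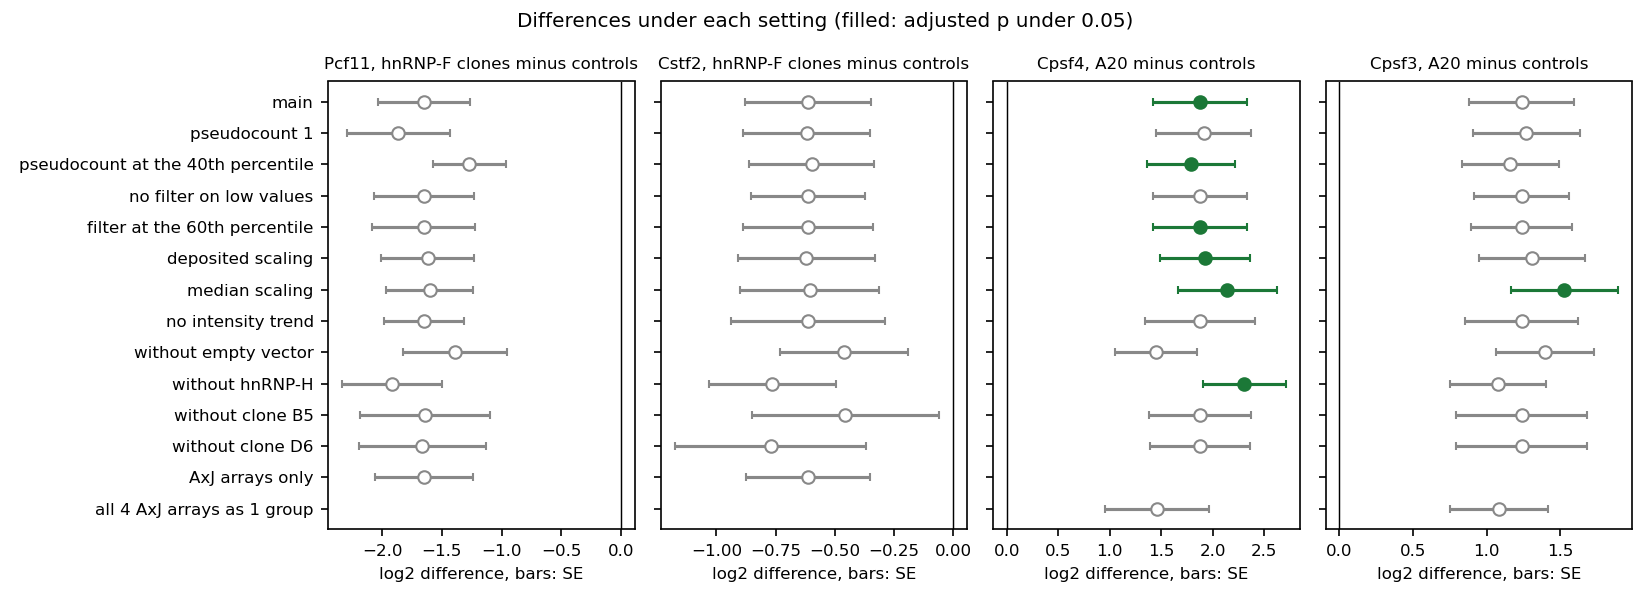
Log2 difference (horizontal axis, with bars of 1 SE) of Pcf11 and Cstf2 in the hnRNP-F clones and of Cpsf4 and Cpsf3 in A20, in the setting of the text and under each alternative (vertical axis). Filled points have an adjusted p under 0.05. No sign turned for these 4 probe sets, and Cpsf4 passed in the setting of the text and under 5 of 12 alternatives.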

How the data were processed

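The authors deposited a linear intensity for each probe set on each of the 5 arrays, and the deposited values have a trimmed mean near 150 on every array. How background was treated, and with which software, is not given in the sources used here. Symbols came from the platform annotation, updated by gene identifier. The 66 control probe sets were left out. Arrays were quantile normalised because the A20 median lay 11.6% under the mean of the 5 medians. Values were taken as log2(intensity + 6.55), with 6.55 the 20th percentile of all values, and 9107 probe sets with a highest value over 21.8, the 40th percentile, were kept. limma 3.58.1 in R 4.3.3 (lmFit, eBayes with intensity trend) was fitted over all 5 arrays with coefficients for the hnRNP-F clones, the AxJ controls and A20, leaving 2 residual degrees of freedom and a prior of 6.46. Tests were two-sided, and p-values were adjusted by the Benjamini-Hochberg method over all probe sets kept. Every member probe set is named. Other list genes are named where called, otherwise the 2 with the largest difference. Members and lists were chosen with earlier results of these data known. The script was tested on simulated data. Alternatives covered the pseudocount, filter, scaling, intensity trend, grouping and each AxJ array left out.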

Additional observations from a re-analysis of the deposited data

How the results depend on the processing

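Each member difference was recomputed under up to 12 alternatives, giving 310 values, of which 289 kept their sign and their side of the threshold. In the clones the member count called stayed at 0 under all. The count over all probe sets, 1 in the text, was 0 without the filter on low values, 0 without the intensity trend, and 0 to 3 with 1 AxJ array left out (0 without B5, 3 without D6). With 1 array left out, Cpsf2 probe set 104161_at ran from -0.814 to 0.16 (above 0 without empty vector) and Nudt21 from -0.35 to 0.566 (below 0 without B5). In A20 the member count called, 1 in the text, was 0 with a pseudocount of 1, 0 without the filter, 0 without the trend, 0 with all 4 AxJ arrays as 1 group, 2 under median scaling (Cpsf3 added), and 0 to 1 with 1 AxJ array left out, where it was 0 without empty vector, B5 or D6. The count over all probe sets, 536, was 311 without the filter, 145 without the trend and 245 to 667 with 1 array left out, lowest without B5 (245) and D6 (256). Under the deposited scaling signs turned for Pcf11 (-0.0062), Nudt21 (0.0402), Papola probe set 97996_at (-0.0704) and Pabpc1 (-0.23). Under median scaling they turned for Nudt21 (0.26) and Pabpc1 (-0.0106), and with all AxJ arrays as 1 group for Papola probe set 160681_at (0.0158). With 1 array left out, Pcf11 ran from -0.24 to 0.288, Nudt21 from -0.0776 to 0.0378 and Papola probe set 160681_at from -0.540 to 0.0366, all turned without hnRNP-H. Pabpc1 ran from -0.0495 to 0.350, turned without empty vector. Leaving out 1 AxJ array moved the log2 difference by over 1.5 times or turned its sign for 10 of 13 probe sets in the clones and 7 of 13 in A20. The cause of these changes was not tested. The counts on either side of the controls under other scalings were added after seeing the data. The filter at the 60th percentile removed Papola probe set 97996_at. No paired analysis was possible because the groups compared share fewer than 2 replicate numbers. A lone array left in a group is assumed to vary like the others, and the number of arrays limits the precision.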
